A study of Homo sapiens with 24 samples.

Results

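Small nucleolar RNA host genes were followed here in a messenger RNA sequencing study of HEK293T cells. They were taken as every row whose gene name starts with SNHG, together with GAS5, ZFAS1 and EPB41L4A-AS1. The rule found 28 rows of 58735, carrying 27 distinct symbols because SNHG28 has 2 gene identifiers. Of the 28, 24 had enough counts to be tested, among 19952 genes tested in all. HEK293T is a human embryonic kidney line that carries the SV40 large T antigen. The study grew unedited cells (WT), cells labelled MIR210-KO and cells labelled MIR210HG-KO for 24 h at 21% oxygen (normoxia) or 1% oxygen (hypoxia), with 4 libraries in each of the 6 groups. MIR210 encodes a microRNA that is a classical target of hypoxia-inducible factors, and lies inside MIR210HG, its long non-coding host gene. All groups share the same line and medium, and whether a knockout is 1 clone or a pool is not given in the sources used here. The labels do not say whether the libraries of a group came from separate cultures, so the p-values measure the spread between these libraries, which may be technical. The 2 oxygen levels were deposited as separate tables, so oxygen and table cannot be told apart.

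A small nucleolar RNA host gene is transcribed and spliced mainly to release the small nucleolar RNAs (snoRNAs) that sit in its introns. Box C/D snoRNAs guide methylation and box H/ACA snoRNAs guide pseudouridylation of ribosomal RNA, each within a ribonucleoprotein built on fibrillarin or dyskerin. The spliced exons that remain are the host RNA counted here. Many of these host RNAs begin with a terminal oligopyrimidine (TOP) run, a C followed by pyrimidines, as ribosomal protein messenger RNAs do. Several are translated only briefly and are then degraded by nonsense-mediated decay, so their level is known to depend on translation and decay as well as on transcription. GAS5, the growth arrest-specific transcript, is the textbook case, since it accumulates when growth or translation stops.

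Library totals ran from 25556776 to 37858947 counts. The host genes together held 0.123% of the counts in WT, 0.131% in MIR210-KO and 0.105% in MIR210HG-KO at normoxia, and 0.175%, 0.113% and 0.0933% at hypoxia. MIR210HG had 0 counts in all 8 MIR210HG-KO libraries, against 125 to 178 in WT at normoxia and 646 to 765 at hypoxia. The 8 libraries labelled MIR210-KO held 52 to 118 MIR210HG counts at normoxia and 646 to 780 at hypoxia. Their 110-base MIR210 row held 6 to 11 counts at hypoxia, where WT held 2 to 14, so these counts do not check the MIR210-KO label, and MIR210-KO below means the libraries labelled so. Hypoxic WT libraries 1 and 3 stood apart from 2 and 4: other long non-coding RNAs took 1.43% and 1.36% of their counts, against 2.33% and 2.09%. Results for these host genes that rest on hypoxic WT are also given without libraries 1 and 3 where leaving them out mattered. It mattered where a call ended or a printed median moved by over 1.5 times. For the gene lists this was done for some results only, and their medians are given with all libraries. Of the markers listed for HEK293T, KRT8, KRT18, CDH2 and VIM had medians of 29.1, 37.6, 74.7 and 249.8 CPM (read counts normalised to the scaled library size). Of the blood markers, PTPRC and CD3E had medians of 0 and CD14 one of 0.497 CPM. None of the 3 endothelial and 2 hepatocyte markers had a median of at least 1 CPM, while the fibroblast markers COL1A1 and COL3A1 did (23.2 and 7.47 CPM) and DCN did not (0.0407 CPM).

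The annotated starts are shown because the TOP run is the sequence feature by which these genes are usually grouped. RefSeq's promoter table (GRCh38.p14) matched 23 of the 27 symbols; SNHG6, SNHG9, SNHG15 and SNHG25 were not among them. Each line gives 20 bases before the annotated start and 40 from it, 5′ to 3′ along the gene, except GAS5 and SNHG4, which show 10 before and 20 from it. Capitals mark a TOP run, written here as C followed by at least 4 bases that are C or T, at or within 10 bases of the start. The first 7 are members whose level rose in WT at low oxygen, the next 5 fell there, and SNHG8, last, fell in both knockouts without a call in WT. SNHG3, which also fell in WT, is not printed and had no run at or within 10 bases of its RefSeq start.
EPB41L4A-AS1 (chr5:112160506-112160565, + strand): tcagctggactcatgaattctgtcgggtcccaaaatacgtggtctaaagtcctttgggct
GAS5 (chr1:173869026-173869055, - strand): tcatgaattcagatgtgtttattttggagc
SNHG1 (chr11:62855846-62855905, - strand): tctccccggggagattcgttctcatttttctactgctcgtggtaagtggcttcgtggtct
SNHG7 (chr9:136728145-136728204, - strand): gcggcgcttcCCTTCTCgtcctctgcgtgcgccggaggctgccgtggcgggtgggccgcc
SNHG12 (chr1:28581834-28581893, - strand): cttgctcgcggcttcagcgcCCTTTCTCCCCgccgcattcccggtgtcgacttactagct
SNHG17 (chr20:38435289-38435348, - strand): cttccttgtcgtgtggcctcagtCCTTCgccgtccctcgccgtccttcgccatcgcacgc
ZFAS1 (chr20:49278622-49278681, + strand): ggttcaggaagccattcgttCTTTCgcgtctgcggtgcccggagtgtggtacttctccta
SNHG4 (chr5:139274091-139274120, + strand): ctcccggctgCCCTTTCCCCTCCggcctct
SNHG5 (chr6:85678694-85678753, - strand): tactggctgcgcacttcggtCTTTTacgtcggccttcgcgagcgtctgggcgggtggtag
SNHG16 (chr17:76557744-76557803, + strand): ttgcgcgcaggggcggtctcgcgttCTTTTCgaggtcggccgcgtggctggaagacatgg
SNHG19 (chr16:2155319-2155378, - strand): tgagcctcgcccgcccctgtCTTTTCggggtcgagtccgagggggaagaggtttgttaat
SNHG20 (chr17:77088623-77088682, + strand): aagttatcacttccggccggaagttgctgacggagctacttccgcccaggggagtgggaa
SNHG8 (chr4:118278742-118278801, + strand): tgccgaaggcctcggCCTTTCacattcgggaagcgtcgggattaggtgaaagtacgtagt
GAS5, a second transcript (GENCODE release 29, starting at base 173867989 of chromosome 1, reverse strand): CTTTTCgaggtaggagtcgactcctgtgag
A TOP run opened exactly at the annotated start in 6 of the 23 members (26.1%), against 4.07% of 35116 promoters in the table. Allowing the run to begin within 10 bases of the start gave 13 of 23 (56.5%), against 33.5% of all promoters. By the response in WT, 2 of 7 members that rose and 3 of 6 that fell had the run exactly at the start, so the run was found on both sides. Annotated starts differ between sources: GAS5 shows no run at the RefSeq start printed above, while 6 of its 29 GENCODE transcripts begin with one, as in the last line. Over the 24 members with annotated transcripts, 28 of 234 GENCODE transcripts (12.0%) began with a TOP run, against 2.41% of 206694 transcripts in the release. The E-box CACGTG, searched on both strands over the table's promoter windows, occurred in 1 member (SNHG7) and in 7.26% of all promoters. The shorter ACGTG, which CACGTG contains, occurred in 4 members (EPB41L4A-AS1, SNHG7, SNHG8 and SNHG11) and in 21.4% of all promoters. These matches describe letters in a window and nothing more.

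Levels between genes were compared as CPM per kilobase of the deposited gene length (CPM per kb), averaged over 24 libraries. GAS5 was the highest at 85.3, followed by SNHG5, host of SNORD50B, at 54.4 and SNHG1, host of SNORD22, SNORD25 to SNORD28 and SNORD30, at 43.1. SNHG19 (36.2), SNHG6 (29.2), SNHG8 (27.5) and SNHG16 (23.2) came next. The order depended on the group: at hypoxia in WT, SNHG1 averaged 94.5 CPM per kb and SNHG5 55.4, while at normoxia in WT SNHG5 averaged 65.3 and SNHG1 37.9. ZFAS1 and EPB41L4A-AS1 both sat at 8.58 CPM per kb. At the low end, SNHG14, the imprinted host of the SNORD115 cluster, held 90 counts in all 24 libraries, and SNHG18, SNHG27 and the second SNHG28 row (ENSG00000188004) held 0, which allows up to 0.00414 CPM over the 24 libraries (3 counts, counting error only). These 4 rows were not tested. GAS5 alone supplied 21.8% of the host gene counts in normoxic WT and 28.8% in hypoxic WT.

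The first comparison asked how the host genes respond to low oxygen in unedited cells. In WT, 8 of 24 rose and 8 fell at 1% oxygen, while 8 were not called by edgeR's quasi-likelihood test at an adjusted p under 0.05. Of all genes tested, 29.6% were called higher and 30.7% lower, so the shares of members, 33.3% each way, were near the background. The members' median log2 fold change was -0.10, beside 0.00 over all genes. That median depended on the libraries and the scaling: it was -0.25 without hypoxic WT 1 and 3, 0.13 without 2 and 4, -0.01 with upper quartile scaling and -0.03 with a covariate for long against short genes. Leaving out normoxic WT 1 or hypoxic WT 2, 3 or 4 alone gave -0.04, -0.03, -0.17 and -0.04. The genes that rose were SNHG1, ZFAS1, EPB41L4A-AS1, GAS5, SNHG12, SNHG17, SNHG15 and SNHG7, and the largest rise among them was that of SNHG1. In bulk libraries fewer cells of a type and less RNA per cell cannot be told apart, here or in what follows.

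GAS5 (ENSG00000234741, chromosome 1, 173863900 to 173868882 on the reverse strand) measured 286, 285, 275 and 284 CPM in the WT libraries at normoxia and 555, 429, 562 and 404 CPM at hypoxia. The groups did not overlap, and hypoxic libraries 1 and 3 were the 2 highest. Its log2 fold change was 0.79 ± 0.08 (SE; adjusted p = 1.85e-10), and 0.56 without hypoxic WT 1 and 3. SNHG1 (ENSG00000255717, chromosome 11, 62851988 to 62855914 on the reverse strand) gave 147, 150.3, 141 and 132 CPM in WT at normoxia and 387, 327, 383 and 323 CPM at hypoxia. Every hypoxic library was thus above every normoxic one by a wide margin. Its log2 fold change was 1.32 ± 0.06 (adjusted p = 1.45e-17). ZFAS1 (ENSG00000177410, chromosome 20, 49278178 to 49295738 on the forward strand), which hosts the SNORD12 family beside ZNFX1, gave 16.4, 16.5, 16.2 and 14.6 CPM at normoxia and 34.4, 29.2, 38.9 and 31.1 at hypoxia in WT. That is a log2 fold change of 1.07 ± 0.10 (adjusted p = 1.96e-10), again with no overlap. EPB41L4A-AS1 (ENSG00000224032, chromosome 5, 112160526 to 112164276 on the forward strand), the host of SNORA13, went from 26.4, 26.5, 25.1 and 25.9 to 54.1, 39.002, 53.4 and 43.3 CPM. Libraries 1 and 3 were again the highest of its hypoxic group, and the log2 fold change was 0.87 ± 0.09 (adjusted p = 2.52e-10).

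Of the other 4 that rose, SNHG12 (ENSG00000197989, chromosome 1, 28578538 to 28583132 on the reverse strand), host of SNORA44, SNORA61 and SNORD99, measured 22.99, 21.9, 20.2 and 18.1 CPM in normoxic WT and 35.96, 31.1, 38.3 and 32.8 CPM in hypoxic WT (log2 fold change 0.73 ± 0.08). For SNHG17 (ENSG00000196756, chromosome 20, 38420588 to 38435353 on the reverse strand), host of the SNORA71 family, the 4 normoxic WT libraries read 49.9, 51.6, 48.6 and 51.8 CPM and the hypoxic ones 74.9, 65.8, 85.3 and 68.2 CPM (log2 fold change 0.54 ± 0.07). Both separated the 2 oxygen levels fully. SNHG15, host of SNORA9, averaged 69.1 ± 3.38 CPM (SD, n = 4) at normoxia and 95.1 ± 9.99 at hypoxia, a log2 fold change of 0.46 ± 0.06. SNHG7 (ENSG00000233016, chromosome 9, 136721366 to 136728184 on the reverse strand), host of SNORA17A and SNORA17B, measured 68.6, 65.3, 68.5 and 64.1 CPM at normoxia and 92.7, 69.4, 104 and 79.9 CPM at hypoxia in WT. Its lowest hypoxic library lay just above its highest normoxic one, and its rise (log2 fold change 0.37 ± 0.09, adjusted p = 8.21e-04) lost its call without hypoxic WT 1 and 3, at 0.16 with an adjusted p of 0.134. The other 7 rises kept their call under every alternative that was run.

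**Figure D1:**
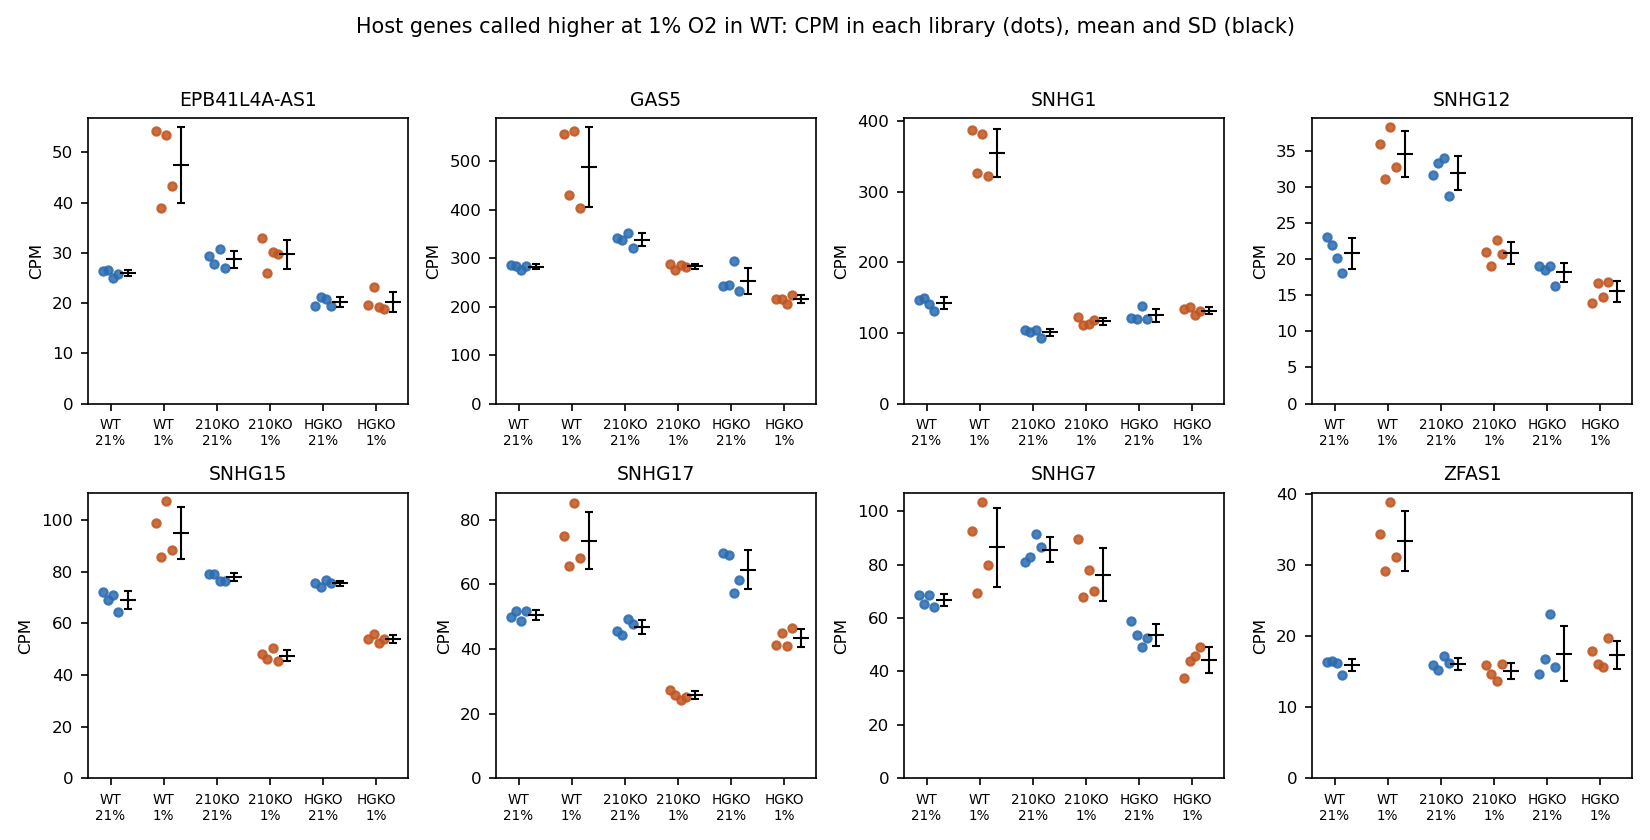
CPM of the 8 host genes called higher at 1% oxygen in WT, 1 panel per gene with its own axis from 0, for WT, MIR210-KO and MIR210HG-KO from left to right, at 21% (blue) and 1% (orange) oxygen. Dots are libraries 1 to 4 from left to right and the black mark is the mean with its SD (n = 4). The hypoxic WT libraries of GAS5 lie at 404 to 562 CPM, above every other library, and those of SNHG1 at 323 to 387.

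The same 8 genes behaved otherwise in both knockouts. Of the 8, low oxygen raised 1 (SNHG1) and lowered 4 (GAS5, SNHG12, SNHG15 and SNHG17) in MIR210-KO, and 3 were not called. In MIR210HG-KO it raised 0, lowered 5 (the same 4 and SNHG7) and left 3 not called. These responses compare no WT library, though their calls share the spread, low-count filter and scaling of 1 fit that includes the WT libraries. Among all genes tested, low oxygen raised 29.3% and lowered 29.5% in MIR210-KO, and raised 25.7% and lowered 28.3% in MIR210HG-KO. GAS5 measured 342, 337, 351 and 321 CPM at normoxia and 288, 276, 286 and 283 CPM at hypoxia in MIR210-KO. In MIR210HG-KO it measured 242, 245, 293 and 233 CPM at normoxia and 216, 216, 204 and 225 CPM at hypoxia. Within each knockout every hypoxic library lay below every normoxic one. GAS5 had a log2 fold change of -0.26 ± 0.08 in MIR210-KO. Its log2 fold change in MIR210HG-KO was -0.24 ± 0.08, and with upper quartile scaling neither was called (adjusted p = 0.193 and 0.261). That scaling moved the median of all genes upward by 0.14 in both knockouts' oxygen comparisons. In MIR210HG-KO the call for GAS5 was also lost without normoxic library 3, at -0.15, and with a covariate for long against short genes, at -0.05. In MIR210-KO, SNHG1 went from 104, 102, 105 and 93.4 to 123, 112, 113 and 118 CPM (log2 fold change 0.20 ± 0.06), a call lost without normoxic MIR210-KO 4, at 0.17. In MIR210HG-KO, where it was not called, SNHG1 stood at 121, 120.4, 139 and 119 CPM at normoxia and 134, 137, 126 and 131 CPM at hypoxia.

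ZFAS1 was not called for oxygen in either knockout: it read 15.9, 15.2, 17.2 and 16.2 CPM at normoxia and 15.9, 14.7, 13.8 and 16.1 CPM at hypoxia in MIR210-KO. In MIR210HG-KO it read 14.7, 16.7, 23.2 and 15.7 CPM at normoxia, with library 3 the highest, and 17.9, 16.1, 15.6 and 19.8 CPM at hypoxia. The 2 oxygen levels overlapped in both. EPB41L4A-AS1 was likewise not called, at 29.3, 27.8, 30.8 and 27.01 CPM at normoxia and 33.01, 26.04, 30.2 and 29.7 CPM at hypoxia in MIR210-KO. Its MIR210HG-KO libraries gave 19.4, 21.2, 20.7 and 19.4 CPM at normoxia and 19.7, 23.1, 19.3 and 18.8 CPM at hypoxia. All 8 MIR210HG-KO libraries lay below every WT and MIR210-KO library. SNHG12 moved against its WT direction, from 31.7, 33.3, 33.99 and 28.8 to 20.9, 18.98, 22.6 and 20.7 CPM in MIR210-KO (log2 fold change -0.62 ± 0.08). In MIR210HG-KO it read 19.1, 18.4, 19.01 and 16.3 CPM at normoxia and 13.9, 16.7, 14.7 and 16.9 CPM at hypoxia, and that fall (-0.23 ± 0.09, adjusted p = 0.0250) lost its call with the same covariate (-0.10), with upper quartile scaling (adjusted p = 0.348) and without any of 5 single libraries (normoxic MIR210HG-KO 1, 2 or 3, or hypoxic MIR210HG-KO 1 or 3). SNHG17 dropped in MIR210-KO from 45.6, 44.4, 49.4 and 47.8 to 27.4, 25.6, 24.4 and 25.3 CPM (log2 fold change -0.87 ± 0.07). Its MIR210HG-KO values were 69.8, 69.2, 57.4 and 61.5 CPM and 41.2, 45.03, 40.998 and 46.5 CPM (-0.57 ± 0.07). SNHG7 fell in MIR210HG-KO (-0.28 ± 0.10), from 58.9, 53.8, 49.1 and 52.5 to 37.6, 43.9, 45.7 and 49.2 CPM, and lost that call with the covariate (-0.05), with upper quartile scaling (-0.14) or without normoxic library 1 (-0.24) or hypoxic library 1 (-0.21). SNHG15 fell by 0.71 on the log2 scale in MIR210-KO and by 0.49 in MIR210HG-KO. Thus 2 genes that rose in WT, SNHG15 and SNHG17, fell in both knockouts under all alternatives run.

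**Figure D2:**
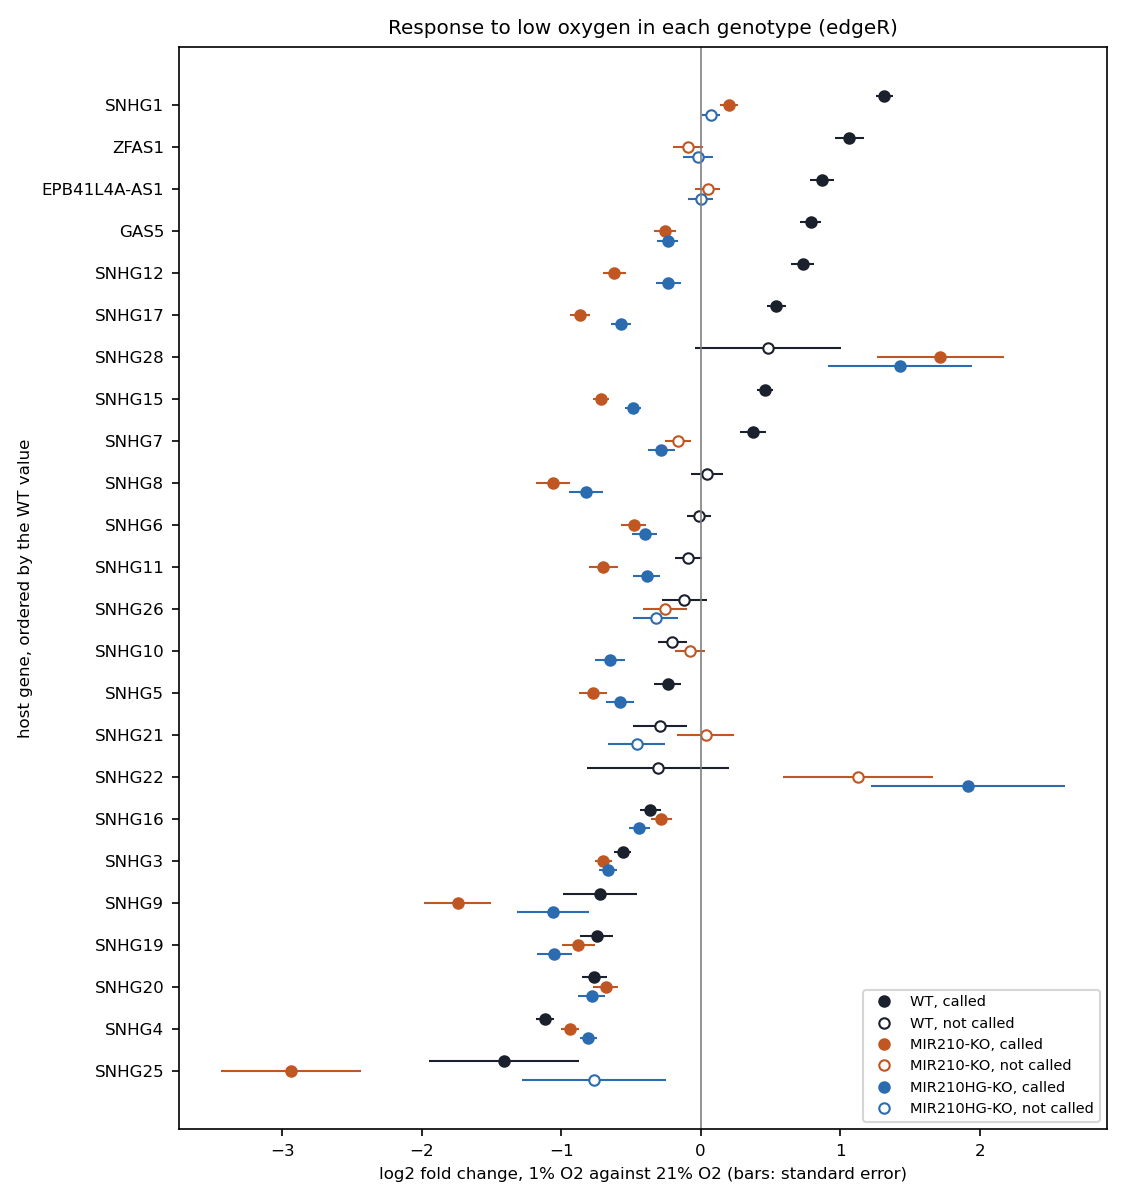
Log2 fold change of each of the 24 tested host genes at 1% against 21% oxygen (horizontal axis, bars are standard errors) in WT (black), MIR210-KO (orange) and MIR210HG-KO (blue), ordered by the WT value. Filled points were called at an adjusted p under 0.05. In the upper rows the black points lie right of 0 (SNHG1 at 1.32) while the coloured ones, SNHG28 excepted, lie near or left of 0. In the lower rows the 3 genotypes mostly lie closer together. Exceptions there include SNHG25, SNHG9, SNHG5 and the low-count SNHG22 (1.92 in MIR210HG-KO).

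The difference between genotypes in the oxygen response was tested directly with interaction terms. In MIR210-KO 13 of 24 members had a lower response than WT and 0 a higher one, where 14.0% and 12.5% of all genes were called lower and higher. For MIR210HG-KO 11 were lower and 1 higher, against backgrounds of 12.2% and 10.2%. The members' median difference was -0.54 in MIR210-KO (0.02 over all genes) and -0.34 in MIR210HG-KO (0.01 over all genes). Without hypoxic WT 1 and 3 these medians shrank to -0.29 and -0.20, and without 2 and 4 they were -0.76 and -0.60. Without hypoxic WT 1 and 3 the MIR210-KO interactions of SNHG5 (-0.53 to -0.26) and SNHG9 (-1.02 to -0.95) and the MIR210HG-KO interaction of SNHG10 (-0.45 to -0.26) lost their calls (adjusted p = 0.0960, 0.0950 and 0.224). The SNHG10 call was also lost without any 1 of normoxic WT 2 or 4, hypoxic WT 3, normoxic MIR210HG-KO 1 or hypoxic MIR210HG-KO 1 or 3, at -0.34 to -0.44. Both interactions use the same 8 WT libraries, so they are not independent of each other, nor of the choice of genes by their rise in WT. All 8 genes that rose in WT had a lower response in both knockouts. For GAS5 the differences were -1.04 ± 0.11 and -1.02 ± 0.11 in MIR210-KO and MIR210HG-KO. SNHG1 differed by -1.11 ± 0.09 and -1.24 ± 0.09, and ZFAS1 by -1.16 ± 0.15 and -1.09 ± 0.15. SNHG17 showed -1.41 ± 0.10 in MIR210-KO, the largest of the 8 there, and -1.11 ± 0.10 in MIR210HG-KO. The smallest was SNHG7, with -0.54 ± 0.13 and -0.66 ± 0.13. Without hypoxic WT 1 and 3 all 8 kept their call in both knockouts, and SNHG7 in MIR210-KO then stood at -0.33 with an adjusted p of 0.0376.

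At 1% oxygen the knockouts were compared with WT directly. MIR210-KO had 13 members lower and 2 higher than WT, beside 27.7% of all genes lower and 28.2% higher. MIR210HG-KO had 18 of 24 (75%) lower and 0 higher, beside 30.2% and 24.4% of all genes. The members' medians were -0.25 and -0.50, with 0.02 and -0.03 over all genes. The MIR210-KO median was -0.13 without hypoxic WT 1 and 3, -0.38 without 2 and 4, and -0.13 with a covariate for long against short genes. The 2 comparisons share the hypoxic WT libraries. GAS5 averaged 488 ± 82.7 CPM (SD, n = 4) in hypoxic WT, 283 ± 5.13 in MIR210-KO (log2 fold change -0.78 ± 0.08) and 215 ± 8.24 in MIR210HG-KO (-1.18 ± 0.08). SNHG1 averaged 355 ± 34.7 CPM in WT, 116 ± 5.19 in MIR210-KO (-1.61 ± 0.06) and 132 ± 4.70 in MIR210HG-KO (-1.43 ± 0.06). EPB41L4A-AS1 differed by -0.67 and -1.23 in MIR210-KO and MIR210HG-KO on the log2 scale, ZFAS1 by -1.14 and -0.95, and SNHG12 by -0.73 and -1.15. SNHG17 differed by -1.52 in MIR210-KO and by -0.76 in MIR210HG-KO. SNHG15 gave -1.001 and -0.82. SNHG7 was called in MIR210HG-KO alone (-0.97 ± 0.09), at 37.6, 43.9, 45.7 and 49.2 CPM there, while MIR210-KO read 89.5, 67.7, 77.8 and 69.96 CPM and overlapped WT. Without hypoxic WT 1 and 3, SNHG5, SNHG3 and SNHG10 lost their MIR210-KO call and SNHG10, SNHG11, SNHG19 and SNHG20 their MIR210HG-KO call; SNHG5 in MIR210-KO went from -0.30 to -0.02. The covariate for long against short genes also ended the MIR210-KO calls of SNHG5 (-0.07), SNHG3 (-0.11) and SNHG10 (-0.09), and upper quartile scaling those of SNHG3 (-0.12) and SNHG10 (-0.20). Leaving out hypoxic WT 1, hypoxic WT 3 or hypoxic MIR210-KO 4 alone also ended the SNHG5 and SNHG10 calls in MIR210-KO, hypoxic WT 1 that of SNHG3, and hypoxic MIR210-KO 2 that of SNHG10. In MIR210HG-KO the call for SNHG10 was lost without any 1 of 7 hypoxic libraries (all but WT 2), and that for SNHG20 without hypoxic WT 3 or hypoxic MIR210HG-KO 3 or 4. SNHG6 (-0.58) and SNHG5 (-0.73) stayed lower in MIR210HG-KO without hypoxic WT 1 and 3, at -0.35 and -0.45.

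A second set fell at low oxygen in every genotype. Of the 8 members that fell in WT, 7 also fell in both knockouts: SNHG3, SNHG4, SNHG5, SNHG9, SNHG16, SNHG19 and SNHG20. Among all genes tested, low oxygen lowered 30.7% in WT, 29.5% in MIR210-KO and 28.3% in MIR210HG-KO. How many of all genes fell in every genotype was not counted, so whether this overlap exceeds the background was not tested. The WT calls of SNHG5 and SNHG9 were lost under some alternatives, given with their values, and the MIR210-KO call of SNHG16 (-0.28) with upper quartile scaling (-0.14). SNHG4 (ENSG00000281398, chromosome 5, 139274102 to 139284899 on the forward strand), host of SNORA74A, had the largest fall among those above 1 CPM in WT. It read 76.04, 79.6, 71.5 and 74.6 CPM at normoxia and 36.3, 35.8, 33.1 and 33.995 CPM at hypoxia (log2 fold change -1.12 ± 0.06). The knockouts started lower, at 51.9, 51.2, 51.4 and 49.3 CPM in MIR210-KO and 47.1, 47.7, 57.8 and 51.5 CPM in MIR210HG-KO. At hypoxia they read 24.3, 28.4, 27.1 and 26.7 and 31.7, 28.9, 28.2 and 28.1 CPM (-0.94 ± 0.06 and -0.80 ± 0.06). SNHG4 was the 1 member with a higher interaction in MIR210HG-KO, at 0.31 ± 0.09. No library of SNHG4 crossed between oxygen levels within a genotype.

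SNHG3 (ENSG00000242125, chromosome 1, 28505980 to 28510892 on the forward strand), host of SNORA73A and SNORA73B, gave 89.2, 94.3, 86.9 and 82.7 CPM in normoxic WT and 64.2, 56.8, 63.03 and 55.9 CPM in hypoxic WT (-0.56 ± 0.06). MIR210-KO read 84.6, 85.3, 90.3 and 84.4 CPM at normoxia and 51.5, 55.2, 54.97 and 50.6 CPM at hypoxia (-0.70 ± 0.06), and MIR210HG-KO 56.4, 57.9, 63.5 and 54.98 CPM at normoxia and 38.3, 35.4, 39.3 and 33.7 CPM at hypoxia (-0.67 ± 0.06). Neither interaction was called (adjusted p = 0.238 and 0.406), and MIR210HG-KO lay below WT at both oxygen levels (-0.60 and -0.71). SNHG16 (ENSG00000163597, chromosome 17, 76557766 to 76565348 on the forward strand), host of the SNORD1 family, read 149, 153, 132 and 113 CPM at normoxia and 109.5, 107, 106 and 103 CPM at hypoxia in WT (-0.36 ± 0.08). In MIR210-KO it read 151, 174, 178 and 177 CPM at normoxia and 137, 134, 144 and 144 CPM at hypoxia, and in MIR210HG-KO 116, 116, 101 and 115 CPM at normoxia and 90.9, 80.8, 71.4 and 87.2 CPM at hypoxia. SNHG16 was therefore above WT in MIR210-KO (0.31 and 0.39 at the 2 oxygen levels) and below WT in MIR210HG-KO (-0.29 and -0.37). SNHG19 (ENSG00000260260, chromosome 16, 2154797 to 2155358 on the reverse strand), host of SNORD60, read 14.97, 15.01, 16.4 and 15.2 CPM in normoxic WT and 10.9, 7.51, 11.1 and 7.25 CPM in hypoxic WT, where libraries 1 and 3 were the higher pair (-0.75 ± 0.12). Its values were 16.3, 19.7, 20.04 and 18.6 CPM at normoxia and 12.05, 9.34, 9.77 and 9.44 CPM at hypoxia in MIR210-KO and 14.97, 13.7, 14.5 and 13.3 CPM at normoxia and 6.85, 8.36, 6.69 and 5.41 CPM at hypoxia in MIR210HG-KO (-0.88 ± 0.12 and -1.05 ± 0.13). The oxygen levels did not overlap for SNHG19 in any genotype. SNHG20 averaged 21.9, 23.8 and 18.4 CPM at normoxia in WT, MIR210-KO and MIR210HG-KO, and 12.9, 14.8 and 10.7 CPM at hypoxia.

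SNHG5 (ENSG00000203875, chromosome 6, 85660950 to 85678748 on the reverse strand) fell in all 3 genotypes, but its WT call depended on the libraries and the settings used. Normoxic WT read 193, 179, 182 and 179 CPM and hypoxic WT 184, 127, 182 and 129.5 CPM, so libraries 1 and 3 overlapped the normoxic range while 2 and 4 lay below it. The log2 fold change was -0.24 ± 0.10 (adjusted p = 0.0366), -0.52 without hypoxic WT 1 and 3, and 0.04 without 2 and 4. Leaving out any 1 of normoxic WT 1 to 4 or of hypoxic WT 2 and 4 also ended the call, with log2 fold changes of -0.15 to -0.24. With all libraries kept, the WT call was lost with RLE scaling (-0.21), upper quartile scaling (-0.15), DESeq2 (-0.21), a minimum mean of 1 CPM (-0.19), mitochondrial genes removed (-0.20), the WT libraries fitted alone (-0.21) and the covariate for long against short genes (-0.08), at adjusted p-values of 0.0714 to 0.241. In MIR210-KO SNHG5 read 212, 216, 225 and 209 CPM at normoxia and 138, 112, 144 and 111 CPM at hypoxia (-0.77 ± 0.10). The MIR210HG-KO libraries read 142, 140.3, 141 and 137 CPM at normoxia and 82.3, 113, 88.4 and 92.8 CPM at hypoxia (-0.58 ± 0.10). Both knockouts separated fully by oxygen. SNHG9 (ENSG00000255198, chromosome 16, 1964959 to 1965509 on the forward strand), a short host of SNORA78, was low, at 1.35, 0.883, 1.24 and 0.853 CPM in normoxic WT and 0.630, 0.526, 0.740 and 0.727 CPM in hypoxic WT. It stood at 3.18, 2.75, 2.09 and 3.20 CPM in normoxic MIR210-KO, above every WT library (1.37 ± 0.24), and at 0.940, 0.934, 0.864 and 0.598 CPM in the hypoxic ones (-1.74 ± 0.24). In MIR210HG-KO SNHG9 read 1.31, 1.69, 0.969 and 2.29 CPM at normoxia and 0.940, 0.804, 0.537 and 0.712 CPM at hypoxia (-1.06 ± 0.26). The WT fall of SNHG9 (-0.72 ± 0.27) lost its call without normoxic WT 1 (-0.59) or 3 (-0.65) or hypoxic WT 2 (-0.63). Its interaction in MIR210-KO (-1.02 ± 0.36) lost its call without any 1 of 7 libraries, at -0.90 to -0.97.

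**Figure D3:**
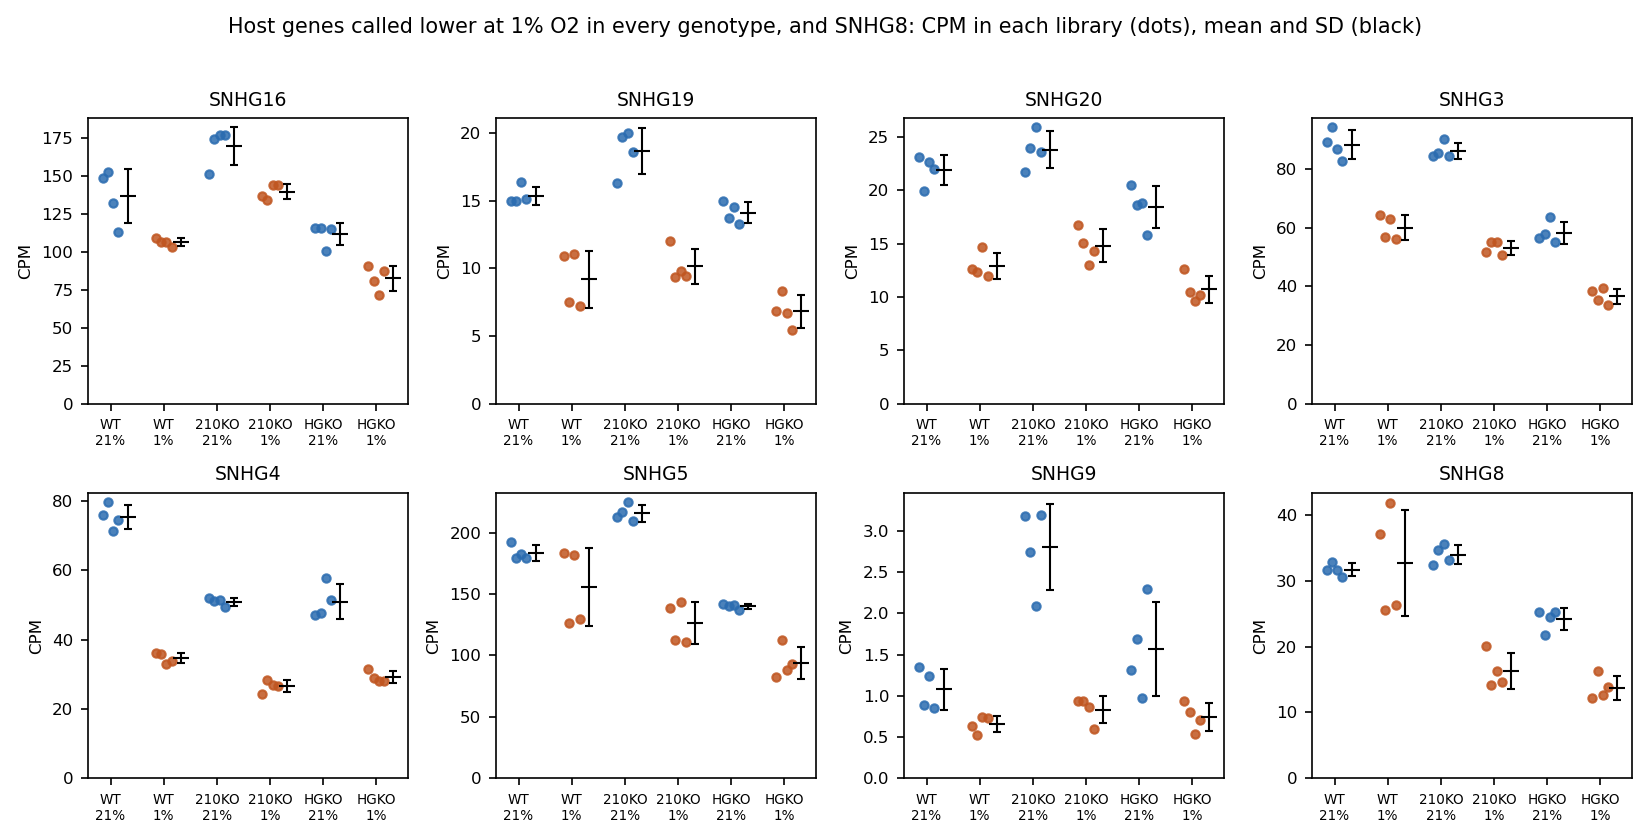
CPM of the 7 host genes called lower at 1% oxygen in all 3 genotypes, and of SNHG8, drawn as in the plot of the genes that rose (blue 21%, orange 1% oxygen; dots are libraries, black marks the mean and SD, n = 4; each axis starts at 0). For SNHG4 every hypoxic library, at 24.3 to 36.3 CPM, lies below every normoxic one, at 47.1 to 79.6 CPM. The hypoxic WT libraries of SNHG8 spread from 25.5 to 41.8 CPM, around their normoxic level, while both knockouts lie lower at hypoxia.

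A further set fell at low oxygen in the knockouts without a call in WT. SNHG8, SNHG6 and SNHG11 were the members called lower in both knockouts and not called in WT. How many of all genes show this pattern was not counted. SNHG8 (ENSG00000269893, chromosome 4, 118278709 to 118279823 on the forward strand), host of SNORA24, read 31.6, 32.9, 31.7 and 30.5 CPM in normoxic WT and 37.1, 25.5, 41.8 and 26.3 CPM in hypoxic WT, with libraries 1 and 3 above and 2 and 4 below the normoxic range. In MIR210-KO it went from 32.4, 34.7, 35.5 and 33.2 to 20.1, 14.2, 16.2 and 14.7 CPM (-1.06 ± 0.12), and in MIR210HG-KO from 25.2, 21.8, 24.5 and 25.2 to 12.1, 16.3, 12.6 and 13.9 CPM (-0.82 ± 0.12). Neither knockout overlapped between oxygen levels. The interactions were -1.10 ± 0.17 and -0.87 ± 0.17, and -0.77 and -0.53 without hypoxic WT 1 and 3. SNHG6 (ENSG00000245910, chromosome 8, 66921684 to 66926398 on the reverse strand), host of SNORD87, gave 36.5, 38.2, 35.7 and 36.7 CPM at normoxia and 43.8, 31.4, 39.9 and 30.9 CPM at hypoxia in WT. It gave 50.7, 47.9, 55.3 and 52.1 CPM at normoxia and 41.6, 37.1, 35.6 and 33.3 CPM at hypoxia in MIR210-KO (-0.48 ± 0.09). The MIR210HG-KO values were 31.6, 33.5, 32.2 and 31.8 CPM at normoxia and 22.2, 28.5, 23.6 and 23.4 CPM at hypoxia (-0.40 ± 0.09), so each knockout was lower at hypoxia in all libraries but WT was not. Without hypoxic WT 1 and 3 the interactions of SNHG6 were no longer called (-0.24 and -0.16, from -0.47 and -0.39), and in MIR210HG-KO the call was also lost without hypoxic WT 1 (-0.29), hypoxic WT 3 (-0.34), normoxic WT 3 (-0.38) or hypoxic MIR210HG-KO 1 (-0.34), 3 (-0.37) or 4 (-0.37). SNHG11 (ENSG00000174365, chromosome 20, 38446578 to 38450921 on the forward strand), host of SNORA60 and SNORA71E, read 14.8, 13.8, 14.4 and 14.2 CPM at normoxia and 14.9, 11.7, 14.8 and 12.6 CPM at hypoxia in WT and 9.04, 9.21, 10.9 and 9.11 CPM at normoxia and 5.72, 5.01, 5.72 and 7.17 CPM at hypoxia in MIR210-KO (-0.70 ± 0.11). Its MIR210HG-KO libraries read 13.3, 14.9, 11.7 and 13.7 CPM at normoxia and 10.2, 9.44, 10.2 and 11.03 CPM at hypoxia (-0.39 ± 0.10). SNHG11 thus had its lowest libraries in hypoxic MIR210-KO. Its interaction was called in MIR210-KO (-0.61) and not in MIR210HG-KO.

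Counting all members, low oxygen lowered 15 and raised 2 in MIR210-KO, beside 29.5% lower and 29.3% higher among all genes. In MIR210HG-KO it lowered 16 and raised 2, beside 28.3% and 25.7%. The members' medians were -0.55 and -0.45, against 0.04 and 0.03 over all genes. With upper quartile scaling 13 were lower and 4 higher in MIR210-KO, and 13 lower and 3 higher in MIR210HG-KO. No member rose in all 3 genotypes.

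**Figure D4:**
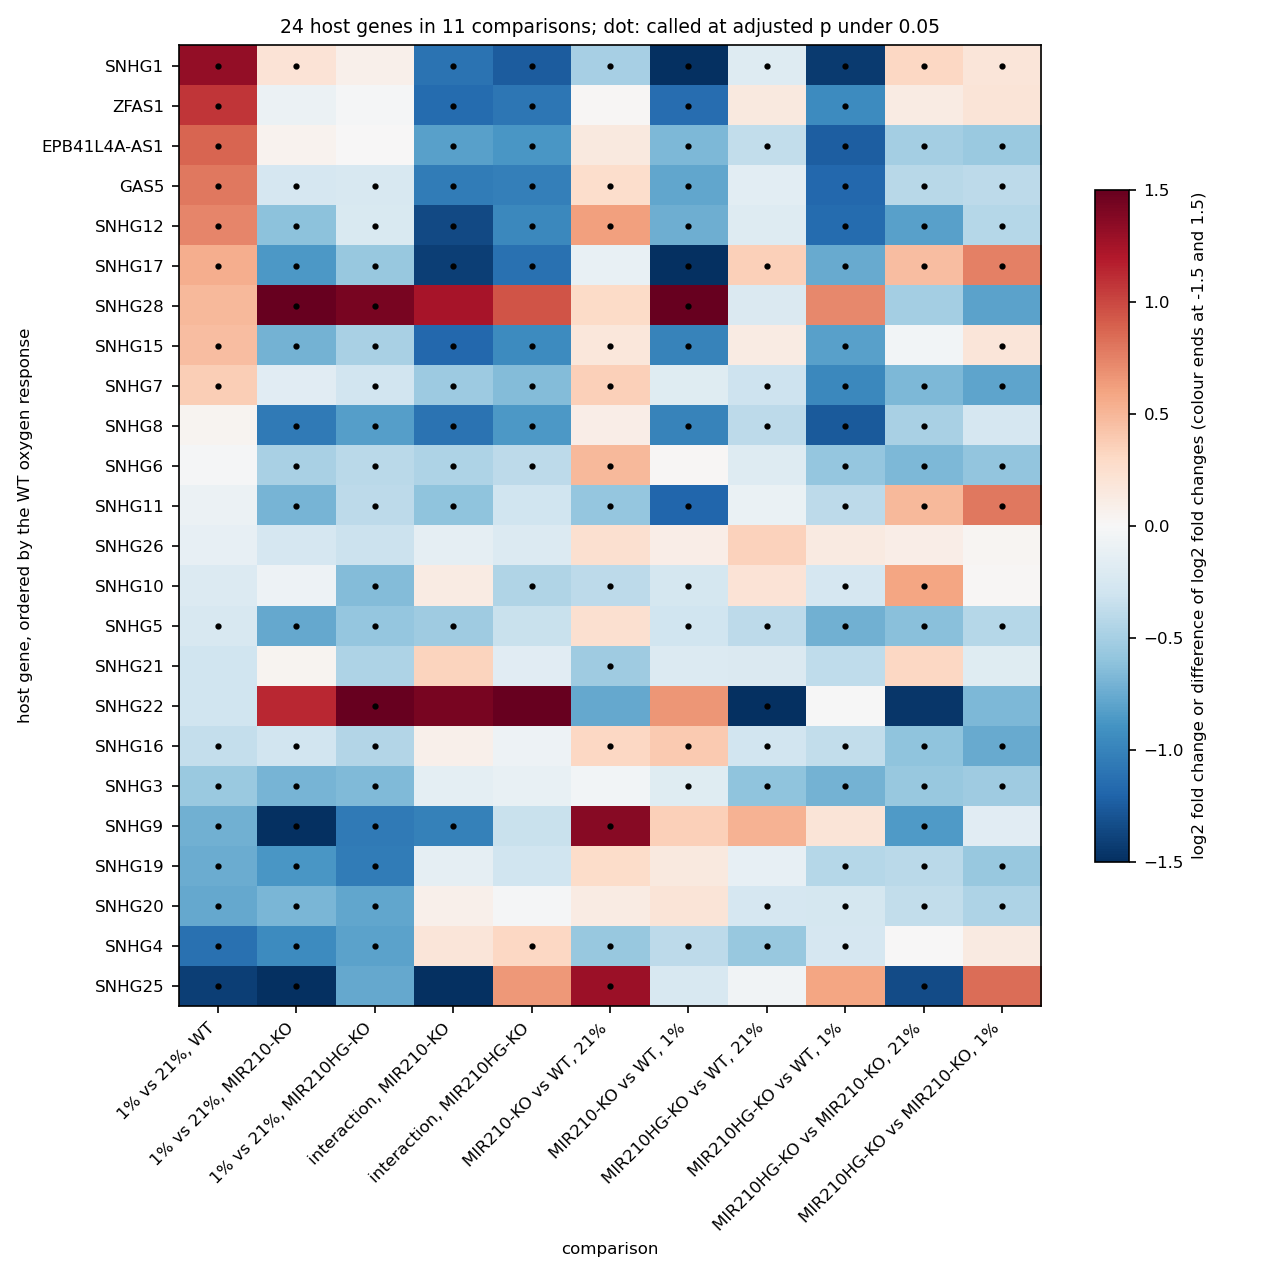
Log2 fold changes (or, for the 2 interactions, differences of log2 fold changes) of the 24 tested host genes (rows, ordered by the WT oxygen response) in the 11 comparisons (columns); red is higher, blue is lower, the colour ends at -1.5 and 1.5, and a dot marks an adjusted p under 0.05. The interaction columns are blue with dots for the genes at the top, SNHG28 excepted, and the column of MIR210HG-KO against WT at 1% holds 18 dots, all on lower values.

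At 21% oxygen SNHG7 and SNHG16 were higher than WT in MIR210-KO and lower in MIR210HG-KO, while SNHG1 and SNHG4 were lower in both. In MIR210-KO 8 members were higher and 5 lower than WT, where 22.6% and 21.6% of all genes were called. In MIR210HG-KO 1 was higher and 10 lower, where 15.6% and 19.6% were called. The members' medians were 0.16 and -0.19, beside 0.01 and -0.01 over all genes; both comparisons share the normoxic WT libraries. With a covariate for long against short genes the MIR210-KO median was 0.29. Higher in MIR210-KO were SNHG9 (1.37), SNHG12 (0.62 ± 0.08), SNHG6 (0.49), SNHG7 (0.36), SNHG16 (0.31), GAS5 (0.26 ± 0.08) and SNHG15 (0.17), with SNHG25 (1.29) among the low-count genes, whose call was lost without normoxic WT 1 or normoxic MIR210-KO 2 or 3. The call for SNHG15 was lost without normoxic WT 4, at 0.15. Lower in MIR210-KO were SNHG11 (-0.58 ± 0.10), SNHG4 (-0.57 ± 0.06), SNHG21 (-0.54), SNHG1 (-0.50 ± 0.06) and SNHG10 (-0.39). SNHG10 lost its call with the covariate (-0.21, adjusted p = 0.0786), as did SNHG21 (-0.47). SNHG21 also lost its call without any 1 of 6 libraries (normoxic WT 2, 3 or 4, or normoxic MIR210-KO 1, 2 or 4), with log2 fold changes of -0.42 to -0.53. For SNHG7, normoxic WT read 68.6, 65.3, 68.5 and 64.1 CPM, MIR210-KO 81.1, 82.9, 91.6 and 86.6 CPM and MIR210HG-KO 58.9, 53.8, 49.1 and 52.5 CPM. The 3 genotypes did not overlap for SNHG7. In MIR210HG-KO the only member above WT was SNHG17 (0.35 ± 0.07), and the larger of the falls were SNHG3 (-0.60 ± 0.06), SNHG4 (-0.56 ± 0.06), SNHG5 (-0.39 ± 0.10), SNHG8 (-0.39), EPB41L4A-AS1 (-0.36 ± 0.09) and SNHG7 (-0.31). SNHG8 lost this call without normoxic MIR210HG-KO 2, at -0.33. SNHG16 (-0.29), SNHG20 (-0.25), SNHG1 (-0.19) and the low-count SNHG22 completed the 10. SNHG1 kept its call here without normoxic MIR210HG-KO 3, and lost it without each of 6 other libraries (all but normoxic WT 4), at -0.15 to -0.18; SNHG20 lost it without 5 (normoxic WT 1, 3 or 4, or MIR210HG-KO 2 or 4), at -0.18 to -0.24.

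Set against each other, the knockouts differed at normoxia in 17 members, 4 higher and 13 lower in MIR210HG-KO, beside 23.4% and 25.8% of all genes. At hypoxia 4 were higher and 10 lower, beside 26.0% and 29.0%. SNHG12 had the largest difference above 1 CPM at normoxia other than SNHG9, at -0.81 ± 0.08. SNHG11 and SNHG17, neighbours on chromosome 20, were higher in MIR210HG-KO at both oxygen levels: 0.49 and 0.80 for SNHG11, 0.46 and 0.76 for SNHG17. GAS5, lower in MIR210HG-KO, differed by -0.42 at normoxia and -0.40 at hypoxia, and SNHG7 by -0.67 and -0.79. SNHG16 differed by -0.60 and -0.76. At hypoxia SNHG1 (0.18) lost its call without hypoxic MIR210-KO 2 or 3 (0.16 each) or hypoxic MIR210HG-KO 2 (0.17), with upper quartile scaling (0.14, adjusted p = 0.0502) and with the covariate for long against short genes (0.096, adjusted p = 0.118). SNHG15 (0.18) lost its call with the covariate too (0.11).

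The remaining members rested on few counts or changed little. SNHG22 held 6 to 50 counts per group, so its calls (lower in MIR210HG-KO than WT at normoxia, higher with low oxygen in MIR210HG-KO) rest on 31 against 6 and on 6 against 30 counts, and both were lost without 1 or another library (normoxic WT 1 for the first; normoxic MIR210HG-KO 1 or 2, or hypoxic MIR210HG-KO 2 or 3, for the second). SNHG25, host of SNORD104, held 11 to 65 counts per group and averaged 0.263, 0.647 and 0.252 CPM at normoxia in WT, MIR210-KO and MIR210HG-KO, and 0.0969, 0.0776 and 0.147 CPM at hypoxia. Its fall with low oxygen was called in WT (-1.41 ± 0.54, lost without normoxic WT 4, hypoxic WT 2 or 3, or both hypoxic WT 1 and 3, then -1.48 at adjusted p = 0.0652) and in MIR210-KO (-2.94 ± 0.50, -3.54 without hypoxic MIR210-KO 2). The tested SNHG28 row (ENSG00000256029) held 14 to 88 counts per group and rose in MIR210-KO (1.72 ± 0.46), from 0.212, 0.202, 0.125 and 0.240 to 0.570, 0.596, 0.764 and 0.692 CPM. Its call in MIR210HG-KO (1.43 ± 0.52) was lost without normoxic MIR210HG-KO 3 (1.02) or hypoxic MIR210HG-KO 2 (1.04). SNHG26, host of SNORD93, was called in none of the 11 comparisons, at group means of 2.19 to 3.01 CPM. SNHG21 averaged 2.34 to 3.74 CPM and was called only in MIR210-KO against WT at normoxia. SNHG10 averaged 8.95 to 14.2 CPM and fell with low oxygen in MIR210HG-KO alone (-0.65 ± 0.10).

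Genes near some members also differed between MIR210-KO and WT. For each member, the tested genes within 5 Mb, leaving out only that member itself, were summarised by their median log2 fold change in the same comparison. For SNHG1 this median was -0.54 at normoxia and -0.55 at hypoxia over 235 neighbours in MIR210-KO against WT, beside the gene's own -0.50 and -1.61. For SNHG11 and SNHG17 on chromosome 20 the medians were -0.50 and -0.51 at normoxia and -0.49 and -0.49 at hypoxia, and for ZFAS1 on the same chromosome -0.41 and -0.45. For SNHG16 and SNHG20 on chromosome 17 they were 0.32 and 0.34 at normoxia and 0.45 and 0.44 at hypoxia. At normoxia SNHG17 averaged 50.5 CPM in WT and 46.8 in MIR210-KO, and ZFAS1 15.9 and 16.1 CPM, and neither difference was called. The neighbours' part in the members' differences was not tested. Near GAS5, EPB41L4A-AS1, SNHG12 and SNHG15 the medians in MIR210-KO at hypoxia were 0.07, 0.09, 0.02 and 0.18, and these genes differed by -0.78, -0.67, -0.73 and -1.001. In the interaction for MIR210-KO the medians near SNHG1, SNHG17 and ZFAS1 were -0.00, 0.04 and 0.00, so the neighbours' offset was present at both oxygen levels and not in the oxygen response. In MIR210HG-KO at hypoxia the medians near SNHG1, SNHG17 and ZFAS1 were -0.05, 0.00 and -0.04.

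**Figure D5:**
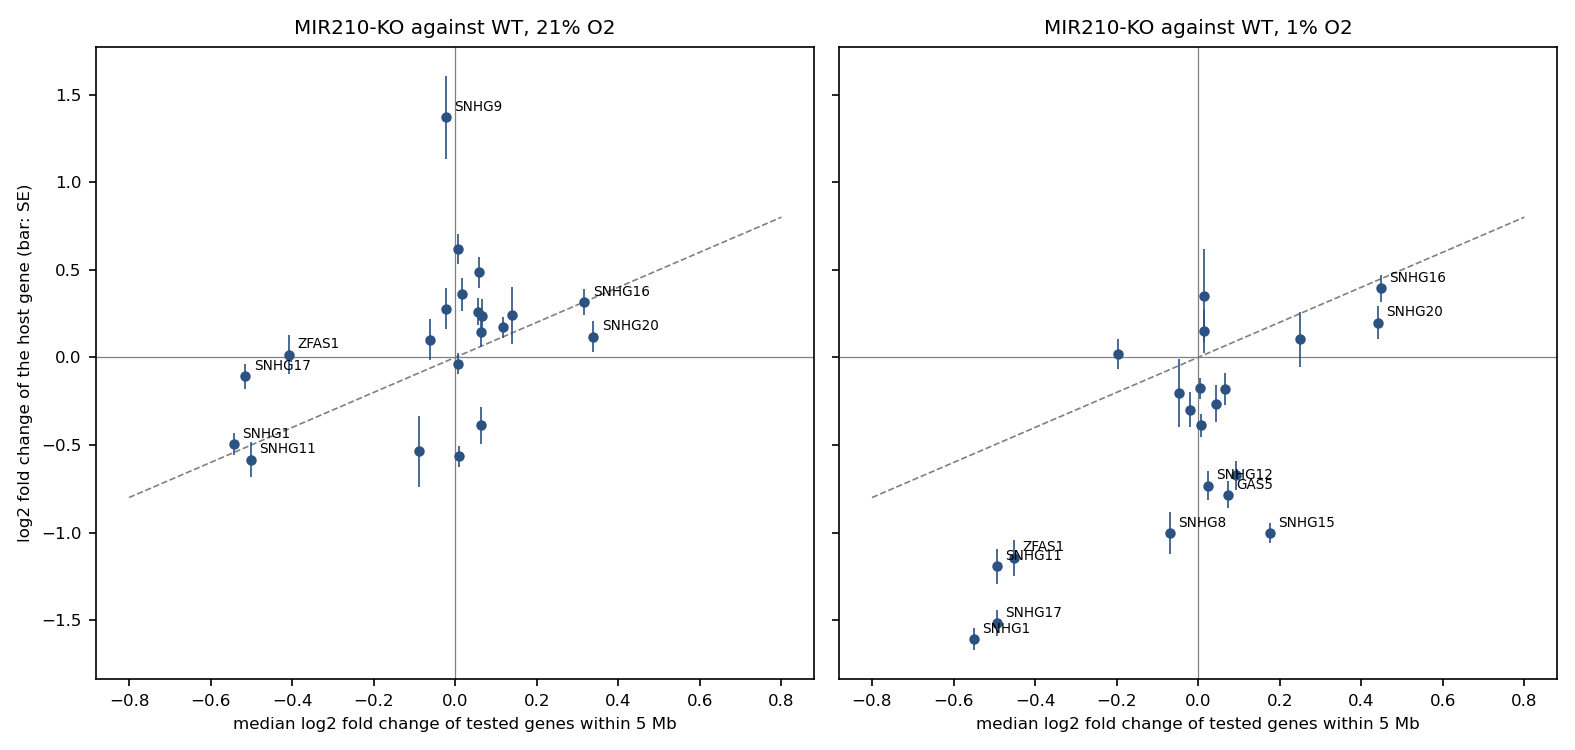
Log2 fold change of each tested host gene with a mean of at least 1 CPM in MIR210-KO against WT (vertical axis, bars are standard errors) against the median log2 fold change of the tested genes within 5 Mb (horizontal axis), at 21% (left) and 1% (right) oxygen; the dashed line marks equal values. At 21% SNHG1, SNHG11 and SNHG16 lie close to the line, and SNHG17 and ZFAS1 lie above it. At 1% SNHG1, SNHG17, SNHG11, ZFAS1, GAS5 and SNHG15 lie well below the line.

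Counting may mix some members with other genes. The kit named in the labels' protocols does not keep the strand of the RNA. At least 14 of the 24 tested members overlap another gene, at least 12 of them one on the opposite strand. Reads of such pairs cannot therefore be told apart. Rows of type TEC, or of a type ending in RNA other than lincRNA, were not searched for overlap. GAS5 overlaps ZBTB37, which averaged 39.6 CPM and had a log2 fold change of 0.61 with low oxygen in WT and interactions of 0.25 and 0.17 in MIR210-KO and MIR210HG-KO. ZFAS1 overlaps ZNFX1, at 26.2 CPM, with -0.12 in WT and interactions of 0.07 and 0.16. SNHG7 overlaps FAM69B, at 61.9 CPM, with -0.80 in WT and interactions of 0.06 and 0.00. SNHG12 overlaps TRNAU1AP, at 31.3 CPM, with -0.26 in WT and interactions of -0.12 and -0.16. EPB41L4A-AS1 overlaps EPB41L4A, at 4.14 CPM, with -0.05 in WT and interactions of 0.44 and 0.32. SNHG3 shares its strand and locus with RCC1, at 239.8 CPM, whose value of -0.69 in WT was near that of SNHG3. The interactions of the named partners of GAS5, ZFAS1, SNHG7, SNHG12 and EPB41L4A-AS1 lay between -0.16 and 0.44. Those of these members lay between -1.35 and -0.54. SNHG1, SNHG15 and SNHG17 overlap no other gene of the types searched.

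The snoRNAs themselves are too short and lack the poly(A) tail that messenger RNA libraries usually need, and most of their rows are empty here. The table held 131 snoRNA rows inside 22 members, 84 of them in SNHG14, and 111 of the 131 had 0 counts. Only 10 rows were tested. With low oxygen 3 were lower and 0 higher in each genotype, and no interaction was called. Of all genes 30.7%, 29.5% and 28.3% were lower in WT, MIR210-KO and MIR210HG-KO, so 3 of 10 was near the background. SNORD104, in SNHG25, fell in all 3 genotypes, with log2 fold changes of -1.59 in WT, -2.80 in MIR210-KO and -1.16 in MIR210HG-KO. SNORA73B, in SNHG3, fell in all 3 too (-1.002, -1.82 and -1.22), as did its host. SNORA71C, in SNHG17, fell in WT (-0.74), where its host rose, and in MIR210HG-KO (-1.08). SNORA13, in EPB41L4A-AS1, and SNORD12B, in ZFAS1, were called in no oxygen comparison, with 48 and 46 counts over normoxic WT and 42 and 55 over hypoxic WT. The rows inside GAS5 and SNHG1 were not tested.

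Genes that act on snoRNAs or on these host RNAs were followed as lists, described by counts and medians without a test of the list; some of the genes named from them were chosen after their values were seen. Among all genes 29.6%, 29.3% and 25.7% rose with low oxygen in WT, MIR210-KO and MIR210HG-KO, and 30.7%, 29.5% and 28.3% fell. Of the 8 core proteins of the snoRNA ribonucleoproteins, 2 rose and 6 fell with low oxygen in WT, 8 fell in MIR210-KO and 7 fell in MIR210HG-KO, and 0 rose in either knockout. The list's medians were -0.45, -0.67 and -0.63, beside medians of 0.00, 0.04 and 0.03 over all genes. DKC1, the dyskerin pseudouridine synthase, rose in WT (0.14 ± 0.05; 0.08 and not called without hypoxic WT 1 and 3) and fell in MIR210-KO (-0.53 ± 0.05) and MIR210HG-KO (-0.39 ± 0.05). NOP58, a box C/D core protein, rose in WT (0.43 ± 0.08) and fell in MIR210-KO (-0.43 ± 0.08). FBL, the fibrillarin methyltransferase, fell in all 3 (-0.50 ± 0.07, -0.66 ± 0.07 and -0.69 ± 0.07), and so did NHP2, a box H/ACA protein (-0.90 ± 0.08, -0.73 ± 0.08 and -0.91 ± 0.08). For the interactions, 5 of 8 were lower in MIR210-KO and 3 of 8 in MIR210HG-KO, and 0 were higher; without hypoxic WT 1 and 3, 4 were lower and 2 higher in MIR210-KO, and 2 lower and 0 higher in MIR210HG-KO. Among 12 assembly factors, 3 rose and 5 fell in WT, 10 fell in MIR210-KO and 8 in MIR210HG-KO, with 7 and 5 lower interactions and 0 higher (4 and 4 lower without hypoxic WT 1 and 3). The assembly factors' medians were -0.02, -0.48 and -0.33. Without hypoxic WT 1 and 3, RPAP3, ZNHIT6 and NAF1 rose in WT. TCOF1, PIH1D1, SHQ1, NOLC1, RUVBL1, RUVBL2 and TAF9 then fell there. With upper quartile scaling 4 rose and 4 fell in WT (also with RLE scaling), and 1 rose and 8 fell in MIR210-KO. ZNHIT6, a box C/D assembly factor, rose in WT (0.44 ± 0.06) and had lower interactions in both knockouts (-0.69 ± 0.09 and -0.49 ± 0.09).

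Of 14 nonsense-mediated decay factors, 3 rose and 9 fell in WT, 2 and 8 in MIR210-KO, and 1 and 9 in MIR210HG-KO (4 and 6 in MIR210HG-KO with upper quartile scaling). The list's medians were -0.30, -0.27 and -0.19, beside 0.00, 0.04 and 0.03 over all genes. UPF1, the central helicase of the pathway, fell in all (-0.78 ± 0.06, -0.58 ± 0.06 and -0.64 ± 0.06). UPF3B, which links UPF2 to the exon junction complex, rose in all (1.004 ± 0.08, 0.42 ± 0.08 and 0.44 ± 0.08), less in MIR210-KO and MIR210HG-KO by their interactions (-0.58 ± 0.11 and -0.56 ± 0.11). For the list 1 interaction was higher and 3 lower in MIR210-KO, and 1 and 2 in MIR210HG-KO (2 and 2 in each with upper quartile scaling, and 0 and 4 in MIR210-KO with RLE scaling). These counts are near the shares of all genes with higher and lower interactions, 12.5% and 14.0% in MIR210-KO and 10.2% and 12.2% in MIR210HG-KO. Without hypoxic WT 1 and 3, UPF3B (-0.55) and SMG5 (-0.21) were called lower in MIR210-KO, and RBM8A (0.29) higher. Among 10 regulators of TOP messenger RNA translation, 4 rose and 4 fell in WT, 2 and 7 in MIR210-KO, and 1 and 5 in MIR210HG-KO. With upper quartile scaling these were 3 and 4 in each knockout. The medians of this list were 0.04, -0.16 and -0.11. Interactions were higher for 4 and lower for 4 in MIR210-KO, and higher for 4 and lower for 3 in MIR210HG-KO. Without hypoxic WT 1 and 3, only EIF4EBP2 (0.53) and TIA1 (0.35) were called higher in MIR210-KO, and only EIF4EBP2 (0.40) and RPTOR (0.43) in MIR210HG-KO. EIF4EBP1, TIAL1, LARP4 and RPS6KB1 were then called lower in both. LARP1, which binds the TOP run, fell in each (-0.51 ± 0.05, -0.42 ± 0.05 and -0.37 ± 0.05), and MTOR, the kinase upstream of it, fell in each as well (-0.89 ± 0.07, -0.59 ± 0.07 and -0.56 ± 0.07). EIF4EBP1, a repressor of cap-dependent translation, rose in WT (0.23 ± 0.08; 0.03 and not called without hypoxic WT 1 and 3) and fell in both knockouts (-0.67 ± 0.08 and -0.39 ± 0.08).

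As a comparison group, 28 protein-coding genes that carry snoRNAs outside the ribosomal proteins were measured. With low oxygen 8 rose and 15 fell in WT, 3 and 23 in MIR210-KO, and 3 and 21 in MIR210HG-KO. Their medians were -0.20, -0.42 and -0.33, and their interactions were called higher for 3 and lower for 11 in MIR210-KO, and higher for 3 and lower for 9 in MIR210HG-KO. With upper quartile scaling these were 4 and 8, and 6 and 8. Without hypoxic WT 1 and 3, HSPA9, DKC1, EIF4A1, WDR43, TAF1D and PRPF39 were called lower in MIR210HG-KO, and SLC25A3, HSPA8, EIF4G1 and EIF4G2 higher. MIR210-KO then had the same genes lower, with MRPL3, RNF149 and TNPO2 besides, and SLC25A3, HSPA8 and RCC1 higher. TAF1D, a subunit of the RNA polymerase I factor SL1, had the largest lower interactions of this list: it rose in WT (0.96 ± 0.08), was not called in either knockout, and had interactions of -0.83 ± 0.12 and -0.98 ± 0.12. WDR43, a ribosome biogenesis factor, rose in WT (0.33 ± 0.05) and fell in MIR210-KO (-0.45 ± 0.05) and MIR210HG-KO (-0.25 ± 0.05). EIF4A2, a translation initiation helicase, rose in all 3 (0.49 ± 0.05, 0.56 ± 0.05 and 0.35 ± 0.05), and HSPA8, a chaperone, fell in all 3 (-1.20 ± 0.06, -0.79 ± 0.06 and -0.87 ± 0.06). NOP56 and DKC1 are counted in this list and among the core proteins.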

How the data were processed

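Messenger RNA libraries of HEK293T cells (24 libraries, 6 groups of 4) were measured as raw read counts per gene. The authors deposited these counts in 2 tables, 1 per oxygen level, of 58735 genes each. Per the submitters' processing notes STAR 2.6.1d, featureCounts 1.5.0-p3, DESeq2 1.20.0, edgeR 3.24.3 and GRCh38 were used. The strand setting of the counting is not given in the sources used here. Per the labels' protocols, TRIzol served to extract total RNA and the NEBNext Ultra RNA kit to prepare libraries.

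The 2 tables were joined by gene identifier, and 0 columns of single samples were left unused. edgeR 4.0.16 (R 4.3.3, limma 3.58.1) fitted 1 quasi-likelihood model with 6 group means, TMM factors and edgeR's default filter on low counts, which kept 19952 genes. p-values were adjusted by Benjamini-Hochberg over all tested genes within each of 11 comparisons, with a threshold of 0.05. CPM were read counts normalised to TMM-scaled library sizes. The model was tested on simulated data with known changes. Alternatives were DESeq2 1.42.0, other scalings and filters, the comparison's libraries alone, a replicate block, a covariate for long (over 8000 bases) against short (under 1500) genes, removal of mitochondrial genes, and libraries left out.

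The members and gene lists were chosen with earlier results of these data known. Values per library were given for GAS5, ZFAS1, EPB41L4A-AS1, the 6 SNHG genes highest in CPM per kb, and the 2 largest called changes per comparison among members of at least 1 CPM. Other members were given by ranges and counts. From the lists, the rule named the largest called change, and further genes were chosen after their values were seen. Same-numbered libraries did not deviate together in any comparison by the standard set (all correlations over 0.1), so no pairing was used. Some of the listed cell type markers are not reported here.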

Additional observations from a re-analysis of the deposited data

Results flagged for a closer look

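Single libraries stood far from the other 3 of their group in 8 of the 96 member and group combinations examined, where chance alone would give about 1 in 20. The gap to the nearest library, divided by the range of the group, passed Dixon's critical value for 4 samples in each. SNHG1 reached 139 CPM in its highest MIR210HG-KO library at normoxia. SNHG11 reached 10.9 CPM and SNHG3 90.3 CPM in 1 normoxic MIR210-KO library each. SNHG16 dropped to 151 CPM in 1 normoxic MIR210-KO library and to 101 CPM in 1 normoxic MIR210HG-KO library. SNHG19 reached 16.4 CPM in 1 normoxic WT library and 12.0 CPM in 1 hypoxic MIR210-KO library. ZFAS1 was lowest at 14.6 CPM in 1 normoxic WT library.

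The oxygen response differed between MIR210-KO and WT, by edgeR's interaction test, for 13 members. The log2 differences were -0.82 for EPB41L4A-AS1, -1.04 for GAS5, -1.11 for SNHG1, -0.61 for SNHG11, -1.35 for SNHG12, -1.17 for SNHG15 and -1.41 for SNHG17. They were -0.53 for SNHG5, -0.47 for SNHG6, -0.54 for SNHG7, -1.10 for SNHG8, -1.02 for SNHG9 and -1.16 for ZFAS1.

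Between MIR210HG-KO and WT the same test separated 12 members. EPB41L4A-AS1 differed by -0.87, GAS5 by -1.02, SNHG1 by -1.24, SNHG10 by -0.45, SNHG12 by -0.96, SNHG15 by -0.95 and SNHG17 by -1.11. SNHG6 differed by -0.39, SNHG7 by -0.66, SNHG8 by -0.87 and ZFAS1 by -1.09, while SNHG4 differed by 0.31. Both sets use the same WT libraries.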

How the results depend on the processing

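Of 3284 recomputed single-gene values, 3111 kept their direction and side of the threshold, 172 lost the call and 1 turned: SNHG5 in WT with low oxygen went to 0.041 without hypoxic WT 2 and 4 (the cause was not tested). Leaving out hypoxic WT 1 and 3 ended 14 of 74 calls, the long against short gene covariate 12 of 164, upper quartile scaling 10 of 164 and DESeq2 3 of 164, and 26 of 164 depended on at least 1 library. In MIR210HG-KO the covariate ended the oxygen calls of GAS5 (-0.05), SNHG12 (-0.10) and SNHG7 (-0.05). The members called between MIR210HG-KO and WT at normoxia rose from 11 to 17 without the 4 libraries that stood apart (hypoxic WT 1 and 3, hypoxic MIR210-KO 1 and normoxic MIR210HG-KO 3) (the cause was not tested), and leaving out 1 library gave 8 to 14. With the replicate number as a block, the calls numbered 15, 11 and 17 at normoxia (MIR210-KO against WT, MIR210HG-KO against WT, and the knockouts), 15, 18 and 14 at hypoxia, 16, 17 and 18 for oxygen in WT, MIR210-KO and MIR210HG-KO, and 13 and 12 for the interactions. The block ended 0 of 164 single-gene calls. Depth limits SNHG22, SNHG25 and SNHG28, with at most 88 counts in a group.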
